A study of Mus musculus with 16 samples.

Results

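The 10 genes described here (Pou5f1, Nanog, Sox2, Zfp42, Dppa5a, Esrrb, Tdgf1, Utf1, Dppa4 and Lin28a) mark pluripotent cells, and their residual levels were followed after mouse embryonic stem (ES) cells had left the undifferentiated state. They were taken as a list of names, with no measured threshold in the choice. Each was represented by its brightest probe, and together they are 10 of the 37154 genes tested. RNA was measured on 16 one-colour Agilent arrays, 2 for each of 8 groups, from cells that were either Sp1+/+ (the E14 line) or Sp1-/-. The Sp1-/- line is an ES cell clone whose mutated Sp1 alleles leave a truncated protein that cannot bind DNA, so that clone and genotype cannot be told apart, and the labels give the strain C57BL/6 for both.

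The 4 populations of each genotype follow the path from mesoderm to blood. Flk1+ cells were sorted from embryoid bodies and contain the hemangioblast, the precursor of endothelial and blood cells. After transfer to blast culture, 3 populations were sorted from its floating and adherent cells combined. HE1, the first stage of the hemogenic endothelium, is KIT+ Tie2+ CD41-, HE2 is KIT+ Tie2+ CD41+, and the progenitors are KIT+ CD41+ Tie2-. Undifferentiated ES cells were not on the arrays used here, so every level below is set against Flk1+ cells. The ES cells had been kept on feeder fibroblasts and then passaged without them before differentiation.

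Pluripotency rests on a small circuit of transcription factors, in which Pou5f1 (Oct4), Sox2 and Nanog bind one another's regulatory regions and those of many further genes. Esrrb and Zfp42 (Rex1) belong to the naive state, which is lost first, whereas Pou5f1 persists into the epiblast and the early primitive streak. Tdgf1 (Cripto) is the co-receptor of Nodal, Lin28a is an RNA-binding protein that blocks maturation of the let-7 microRNAs, and Utf1, Dppa4 and Dppa5a encode chromatin- or RNA-binding proteins of early embryos and germ cells. Sp1 is a zinc finger factor present in nearly all cells that binds GC boxes, many of which lie in promoters.

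Because the genotypes differ in a factor that reads GC boxes, the sequence before the start of 4 of the genes is shown, with each GC box (GGGCGG, or CCGCCC on the other strand, overlapping matches counted) in capitals. RefSeq promoter windows on GRCm38.p6 were found for 8 of the 10 genes, 11 windows in all, and the 250 bases before the start of each were searched. The genes with no window were Dppa5a and Dppa4.
Pou5f1, chr17:35505782-35506031, plus strand: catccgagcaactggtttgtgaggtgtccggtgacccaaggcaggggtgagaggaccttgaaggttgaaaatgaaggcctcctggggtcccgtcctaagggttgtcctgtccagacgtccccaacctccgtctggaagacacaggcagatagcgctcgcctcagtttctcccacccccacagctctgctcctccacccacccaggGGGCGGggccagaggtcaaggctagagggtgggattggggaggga
Zfp42, chr8:43307010-43307259, minus strand: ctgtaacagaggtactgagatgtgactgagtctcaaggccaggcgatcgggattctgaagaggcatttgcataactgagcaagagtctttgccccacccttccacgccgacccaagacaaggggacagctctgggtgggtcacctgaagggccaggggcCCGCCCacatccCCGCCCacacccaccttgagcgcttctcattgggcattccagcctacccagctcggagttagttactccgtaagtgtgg
Utf1, chr7:139943606-139943855, plus strand: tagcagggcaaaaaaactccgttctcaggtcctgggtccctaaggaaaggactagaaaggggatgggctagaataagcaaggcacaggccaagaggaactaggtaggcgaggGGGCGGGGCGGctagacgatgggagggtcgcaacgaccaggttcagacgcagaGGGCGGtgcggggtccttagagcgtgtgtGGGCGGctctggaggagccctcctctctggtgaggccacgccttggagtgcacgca
Esrrb, chr12:86360867-86361116, plus strand: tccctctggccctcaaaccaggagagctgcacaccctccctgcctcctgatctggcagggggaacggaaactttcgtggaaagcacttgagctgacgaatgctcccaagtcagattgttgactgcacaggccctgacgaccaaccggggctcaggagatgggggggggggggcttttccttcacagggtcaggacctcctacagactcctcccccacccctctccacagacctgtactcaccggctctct
Pou5f1 holds 1 GC box beginning 45 bases before the start, Zfp42 holds 2 (91 and 79 bases before), and Utf1 holds 4, of which the pair at 138 and 133 bases overlap. Neither Esrrb window holds these letters. Of the genes not shown, Sox2 holds 2 and Tdgf1 holds 1, while the windows of Nanog and Lin28a hold none. In all, 5 of the 11 windows of these genes have a GC box, and 32.7% of the 32851 windows in the table have one. A match is a description of the letters, and binding was not measured on these arrays.

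Values are the deposited log2 intensities, whose floor on these arrays is 5.65. A spot was taken as present where the scanner software marked it well above background. Across genes the 2 arrays of a group had a Pearson r of 0.99 to 0.997, and the median SD within a group was 0.071 to 0.134. Single genes could differ far more between the 2 arrays of a group. In Sp1+/+ Flk1+ cells the 2 arrays were at 12.89 and 14.57 for Mesp1 and at 8.69 and 10.99 for Otx2. Every comparison with Sp1+/+ Flk1+ cells uses this pair. Between 67.0% and 77.1% of spots were well above background. The arrays of each genotype shared a slide of their own, and a slide effect and a genotype effect therefore cannot be told apart. Sp1 itself lay between 12.14 and 12.56 on the Sp1+/+ arrays and between 9.03 and 10.29 on the Sp1-/- arrays, lower in every population and so in the direction of the labels. Averaged over each list, markers of the sorted populations were highest where named, but single genes did not all follow. Over 6 mesoderm genes the mean log2 value per array was 12.33 to 13.45 in Flk1+ cells and 7.61 to 8.27 in the later populations, and over 6 endothelial genes it was highest in HE1 (11.89 to 12.50). Over 7 hematopoietic genes it was highest in the progenitors (11.89 to 12.49). Kdr, the mesoderm gene that encodes Flk1, stayed high, with means of 13.92 in Sp1+/+ Flk1+ cells and 13.66 in Sp1+/+ progenitors. Of the endothelial genes, Kit rose from 11.95 in Sp1+/+ HE1 to 13.05 in Sp1+/+ progenitors, and Gfi1 was highest in HE2 (11.45 in Sp1+/+). Itga2b, a hematopoietic gene, was also highest in HE2 (12.08 in Sp1+/+). The design names the 2 arrays of a group as independent biological replicates, but a supplementary legend speaks of technical ones, so p-values measure the spread between these arrays, which may be technical. In bulk RNA of sorted cells, fewer cells with a transcript and less transcript per cell cannot be told apart.

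Most of the loss of these genes fell between Flk1+ cells and HE1, and it was not shared by all of them. In Sp1+/+ cells 4 of the 10 fell at this step (Pou5f1, Zfp42, Dppa5a and Tdgf1), and in Sp1-/- cells 6 fell (the same 4, with Sox2 and Esrrb). The lower count in Sp1+/+ cells depended on the scaling, since 5 fell with a background offset of 16 (Sox2 added) and 6 with the scanner's processed signal (Sox2 and Esrrb added). A change counts as called where limma gave it an unadjusted p no higher than 0.01 and it was at least 2-fold. By this rule 3.89% of all genes tested fell at this step in Sp1+/+ cells and 4.87% in Sp1-/- cells. The median of the 10 genes was a log2 difference of -0.63 in Sp1+/+ cells and -1.34 in Sp1-/- cells, against -0.01 over all genes in both. In each genotype 1 member was called as risen, Dppa4 in Sp1+/+ cells and Nanog in Sp1-/- cells, where 4.66% and 4.62% of all genes rose. Both also rose in the other genotype, short of the 2-fold limit (Dppa4 1.88-fold, Nanog 1.87-fold). With the processed signal the rise of Nanog in Sp1+/+ cells was 1.03 on the log2 scale and called. Since ES cells were not measured, these rises are relative to Flk1+ cells, and both genes were well above background on all 16 arrays. At the 2 later steps few members were called. From HE1 to HE2 limma called 0 members as fallen in either genotype, where 2.22% and 3.53% of all genes fell. In either direction, 2 members in Sp1+/+ and 3 in Sp1-/- cells had an unadjusted p under 0.05, as did 21.5% and 29.8% of all genes. From HE2 to progenitors limma called 0 as fallen in Sp1+/+ cells (2 with an unadjusted p under 0.05 in either direction, as for 14.8% of all genes). Of all genes 0.727% fell at that step. In Sp1-/- cells limma called 1 as fallen, Lin28a (4 with an unadjusted p under 0.05 in either direction, as for 28.2% of all genes). There 2.67% of all genes fell. Esrrb (1.87-fold, adjusted p 0.00229), Dppa4 (1.64-fold, adjusted p 0.0238) and Utf1 (1.47-fold, adjusted p 0.0803) also fell in Sp1-/- cells, short of the 2-fold limit.

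**Figure D1:**
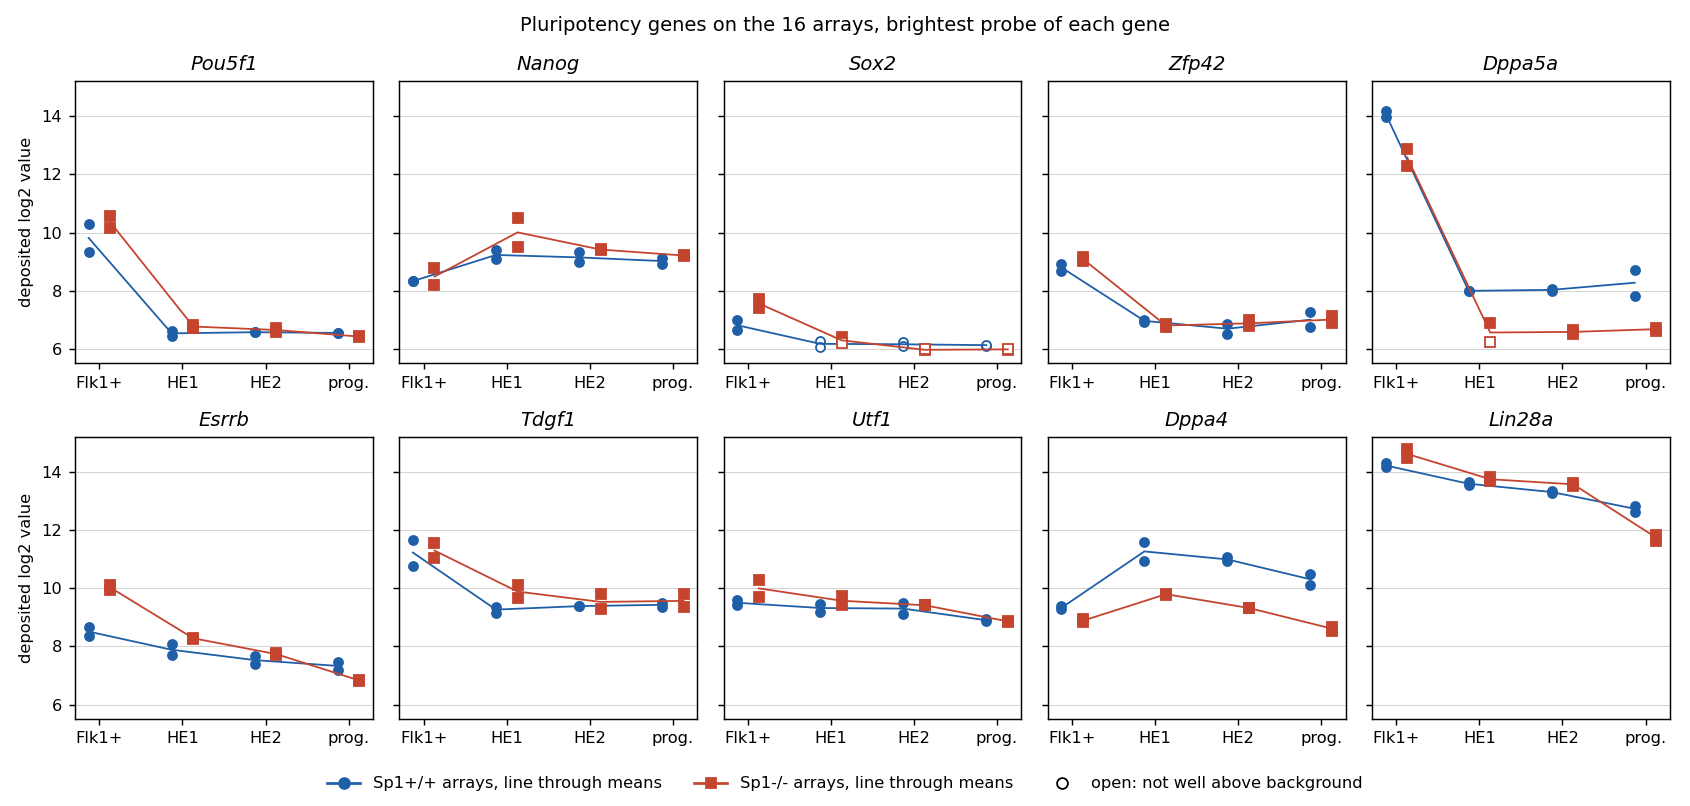
Deposited log2 value (y axis) of the brightest probe of each of the 10 genes on every array, by population (x axis), with circles for Sp1+/+, squares for Sp1-/-, a line through the means of 2 arrays and open symbols where the spot was not well above background. Pou5f1, Zfp42, Dppa5a and Tdgf1 drop from Flk1+ cells to HE1 in both genotypes, Dppa4 and Nanog do not, and 8 of the 10 genes are well above background on all 16 arrays.

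Pou5f1, the factor without which the inner cell mass loses pluripotency, was still well above background on all 16 arrays. In Flk1+ cells it was at 10.31 and 9.33 in Sp1+/+ and at 10.56 and 10.16 in Sp1-/- arrays. In HE1 it was at 6.46 and 6.62 in Sp1+/+ and at 6.73 and 6.82 in Sp1-/- arrays. From there to the progenitors all 12 arrays lay between 6.40 and 6.82, far below every Flk1+ array. The fall to HE1 was 9.71-fold in Sp1+/+ cells (log2 -3.28, SE 0.24, adjusted p 3.08e-06 in limma) and 12-fold in Sp1-/- cells (log2 -3.58, SE 0.24, adjusted p 1.54e-06). The size depended on the scaling, as the log2 differences were -3.88 and -4.08 with an offset of 16, and -4.99 and -4.56 with the scanner's processed signal, in Sp1+/+ and Sp1-/- cells. The genotypes overlapped in Flk1+ cells, where the difference was 0.54 on the log2 scale (SE 0.24, unadjusted p 0.0465, adjusted p 0.238). The first Sp1+/+ array decided that value, since without it the difference was 1.03 with an unadjusted p of 5.02e-05.

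Zfp42, a zinc finger gene that is switched off early when naive cells differentiate, behaved in the same way. It was at 8.94 and 8.67 in Sp1+/+ and at 9.18 and 9.01 in Sp1-/- Flk1+ arrays, and between 6.53 and 7.26 on the 12 later arrays. Its fall to HE1 was 3.57-fold in Sp1+/+ cells (log2 -1.83, SE 0.18, adjusted p 1.99e-05) and 4.87-fold in Sp1-/- cells (log2 -2.28, SE 0.18, adjusted p 3.93e-06). With the processed signal these log2 differences were -2.80 and -3.20. In no population did the genotype difference pass the call, and its sizes ran from -0.16 to 0.29 on the log2 scale (SE 0.18 each).

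Sox2, the partner of Pou5f1 on DNA, was well above background on the fewest arrays. In Flk1+ cells it was at 7.0 and 6.64 in Sp1+/+ and at 7.73 and 7.41 in Sp1-/- arrays, all well above background. Of the 12 later arrays, 1 (the first Sp1-/- HE1 array, at 6.40) was well above background. Both Sp1-/- Flk1+ arrays were above both Sp1+/+ arrays, by 1.68-fold (log2 0.75, SE 0.14, adjusted p 0.00982), which is short of the 2-fold limit. The fall to HE1 was 2.41-fold in Sp1-/- cells (log2 -1.27, SE 0.14, adjusted p 4.96e-05), and -3.42 on the log2 scale with the processed signal. In Sp1+/+ cells, where no HE1 array was above background, it was at least 1.56-fold (adjusted p 0.00586) and was not called, though with an offset of 16 in place of 50 in the background correction it was -1.03 on the log2 scale and called (unadjusted p 0.000416).

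Dppa5a, an RNA-binding protein gene of ES cells and germ cells, combined the steepest fall of the 10 genes with a lower level in Sp1-/- cells throughout. In Flk1+ cells it was at 14.18 and 13.99 in Sp1+/+ and at 12.88 and 12.29 in Sp1-/- arrays. In HE1 it was at 8.01 and 7.99 in Sp1+/+ and at 6.88 and 6.26 in Sp1-/- arrays, and the array at 6.26 was the 1 on which it was not well above background. The genotypes did not overlap in either population. The fall was 67.9-fold in Sp1+/+ cells (log2 -6.09, SE 0.28, adjusted p 1.06e-07) and 64.7-fold in Sp1-/- cells (log2 -6.01, SE 0.28, adjusted p 1.19e-07). In HE2 the values were 8.00 and 8.07 against 6.66 and 6.52, and in the progenitors 7.84 and 8.72 against 6.74 and 6.63. The Sp1-/- arrays were thus below the Sp1+/+ arrays in 4 of 4 populations. The differences were 2.83-fold in Flk1+ cells (adjusted p 0.00863), 2.69-fold in HE1 (adjusted p 0.0102), 2.72-fold in HE2 (adjusted p 0.0109) and 3.02-fold in the progenitors (adjusted p 0.00307). Their likeness in size depended on the scaling, since in the same order the log2 differences were -1.5, -1.89, -1.88 and -2.00 with an offset of 16, and -1.66, -2.18, -2.35 and -2.39 with the processed signal. The RefSeq table lists the pseudogenes Dppa5b and Dppa5c beside Dppa5a, and whether the probe also reads them was not tested.

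Esrrb, a nuclear receptor of the naive circuit, was higher in Sp1-/- Flk1+ cells and lost that excess later. In Flk1+ cells it was at 8.66 and 8.36 in Sp1+/+ and at 10.10 and 9.95 in Sp1-/- arrays, a 2.86-fold difference (log2 1.51, SE 0.15, adjusted p 0.000258). In HE1 it was at 7.70 and 8.07 in Sp1+/+ and at 8.30 and 8.26 in Sp1-/- arrays. In HE2 it was at 7.39 and 7.67 against 7.70 and 7.77. The order then turned, with 7.46 and 7.20 in Sp1+/+ and 6.84 and 6.82 in Sp1-/- progenitors, a log2 difference of -0.50 (SE 0.15, adjusted p 0.0521) that was not called. The fall from Flk1+ cells to HE1 was 3.35-fold in Sp1-/- cells (log2 -1.74, SE 0.15, adjusted p 8.14e-06) and 1.54-fold in Sp1+/+ cells (log2 -0.63, SE 0.15, adjusted p 0.00959, not called). The difference between these genotype effects was tested directly, and the Sp1-/- effect on Esrrb minus its effect in Flk1+ cells was -1.12 for HE1, -1.31 for HE2 and -2.01 for the progenitors on the log2 scale (SE 0.21 each, adjusted p 0.0388, 0.0176 and 0.000887). The value for HE1 was no longer called with the processed signal (-0.70, unadjusted p 0.0447), without the second Sp1+/+ Flk1+ array (-0.97) or without the second Sp1+/+ HE1 array (-0.94).

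Markers of other lineages moved with Esrrb in Flk1+ cells, where 0.778% of all genes were called higher and 0.867% lower in Sp1-/- cells. Over 8 primed epiblast genes the mean log2 value was 9.50 to 9.98 on the Sp1+/+ and 10.65 to 11.08 on the Sp1-/- Flk1+ arrays, with 2 of 8 called higher there. Otx2, a head and epiblast homeobox gene, was at 8.69 and 10.99 in Sp1+/+ and 12.77 and 13.63 in Sp1-/- arrays, and Fgf5, an epiblast growth factor, was 5.86-fold higher. Of 6 mesoderm genes, 1 was higher (Eomes, 2.33-fold), and of 6 fibroblast genes, 1 was lower (Thy1, 2.58-fold). Of 7 endoderm genes, 2 were higher in Sp1-/- Flk1+ cells, Cer1 (11.4-fold) and Foxa2 (6.41-fold), and the mean over the 7 was 8.41 on both Sp1+/+ arrays and 9.50 to 9.74 on the Sp1-/- arrays. Of 7 primordial germ cell genes 2 were higher (Ddx4, 3.56-fold, and Tfap2c, 2.23-fold with an adjusted p of 0.0594 in limma) and 1 lower (Dnd1, 2.16-fold). The mean over the 7 was 8.17 to 8.31 on the Sp1+/+ and 8.48 to 8.70 on the Sp1-/- arrays. Dppa3 was well above background on both Sp1-/- arrays and on neither Sp1+/+ array, and Dazl on none of the 4. The part of these cells in the Esrrb difference was not tested.

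Tdgf1 gave different accounts by probe. On its brightest probe it was at 11.67 and 10.78 in Sp1+/+ and at 11.55 and 11.04 in Sp1-/- Flk1+ arrays. On that probe it fell 3.89-fold to HE1 in Sp1+/+ cells (log2 -1.96, SE 0.29, adjusted p 0.000462) and 2.66-fold in Sp1-/- cells (log2 -1.41, SE 0.29, adjusted p 0.00372). It then stayed between 9.16 and 10.12 on the 12 later arrays. The other 2 probes for the same transcript fell much further. On A_55_P2058540 none of the 12 later arrays was well above background, and the fall was at least 17.5-fold in Sp1+/+ and at least 22.9-fold in Sp1-/- cells. On A_55_P2183147 the fall was at least 38.9-fold in Sp1+/+ cells and 58.9-fold in Sp1-/- cells. Its later arrays lay between 6.01 and 6.47, with none of the 6 Sp1+/+ arrays and 5 of the 6 Sp1-/- arrays well above background. No probe showed a genotype difference that was called. The RefSeq table lists the pseudogenes Tdgf1-ps1 and Tdgf1-ps2, and whether the brightest probe reads them was not tested.

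**Figure D2:**
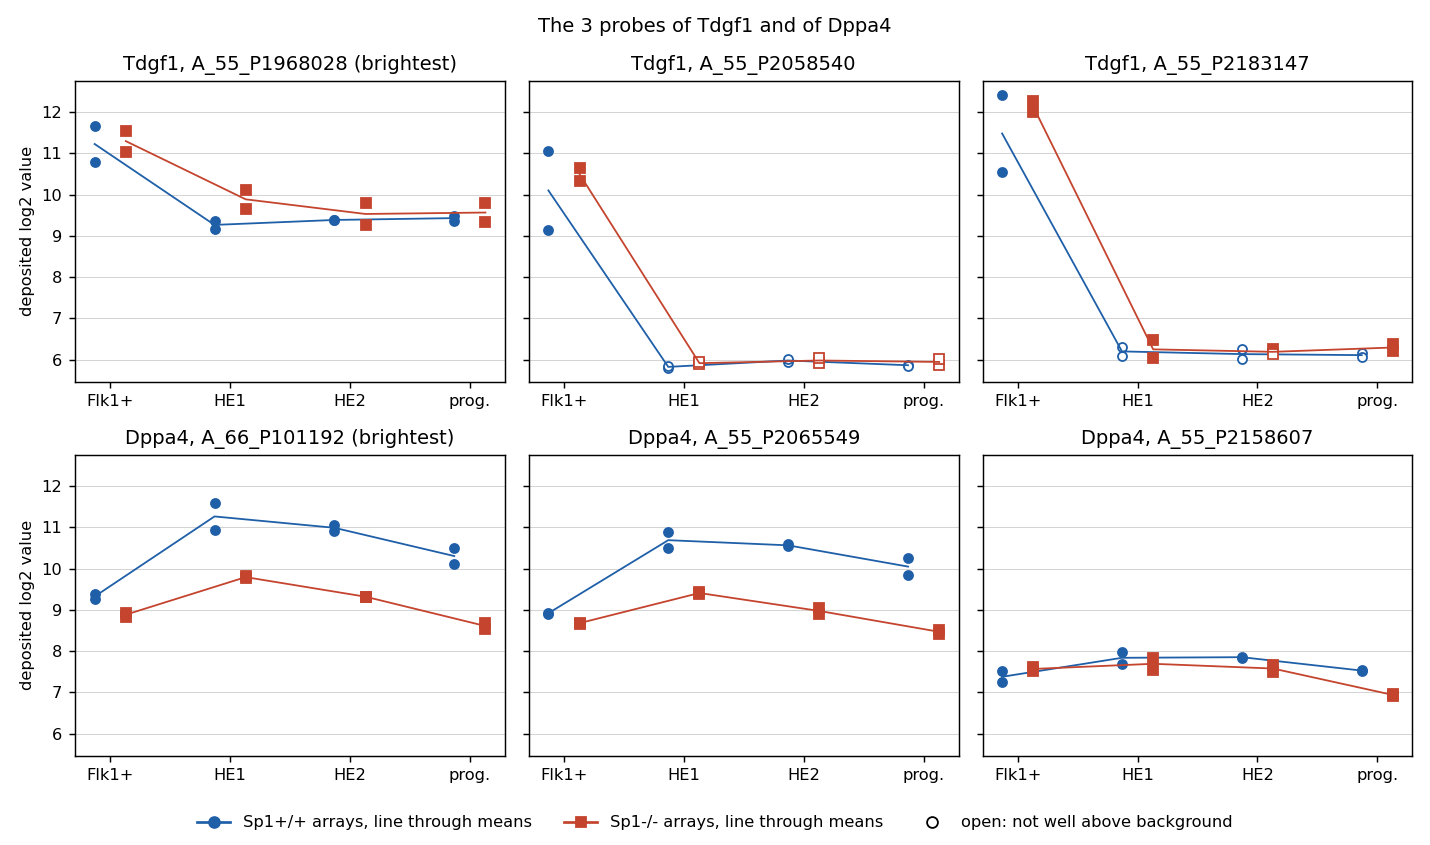
Deposited log2 value (y axis) of the 3 probes of Tdgf1 (top) and Dppa4 (bottom) on each array, by population (x axis), with symbols as in the plot of the 10 genes by array. The brightest Tdgf1 probe levels off between 9.16 and 10.12 where the other 2 drop to 6.47 or lower, and 2 of the 3 Dppa4 probes show a called genotype difference from HE1 on.

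Dppa4, a DNA-binding protein gene of pluripotent cells, rose after the Flk1+ stage, and it rose less in Sp1-/- cells. In Flk1+ cells it was at 9.27 and 9.38 in Sp1+/+ and at 8.93 and 8.84 in Sp1-/- arrays, a difference of -0.44 on the log2 scale (SE 0.18, adjusted p 0.203). In HE1 it was at 11.59 and 10.94 in Sp1+/+ and at 9.81 and 9.78 in Sp1-/- arrays. In HE2 it was at 11.06 and 10.92 against 9.32 and 9.32, and in the progenitors at 10.50 and 10.11 against 8.68 and 8.54. Every Sp1-/- array was below every Sp1+/+ array of its population. The differences were 2.77-fold in HE1 (log2 -1.47, SE 0.18, adjusted p 0.000965), 3.18-fold in HE2 (log2 -1.67, SE 0.18, adjusted p 0.000353) and 3.24-fold in the progenitors (log2 -1.70, SE 0.18, adjusted p 0.000149). The rise to HE1 was 3.84-fold in Sp1+/+ cells (log2 1.94, SE 0.18, adjusted p 1.68e-05) and 1.88-fold in Sp1-/- cells (log2 0.91, SE 0.18, adjusted p 0.00288, short of the 2-fold limit). The Sp1-/- effect minus its effect in Flk1+ cells was -1.03 for HE1, -1.23 for HE2 and -1.25 for the progenitors on the log2 scale (SE 0.26 each, adjusted p 0.101, 0.0535 and 0.019).

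The probes of Dppa4 did not all show this. On A_55_P2065549 the genotype differences in HE1, HE2 and progenitors were 2.43-fold, 3.01-fold and 2.99-fold, all called. On A_55_P2158607, the dimmest of the 3, they were -0.15, -0.28 and -0.59 on the log2 scale (SE 0.13 each, unadjusted p 0.288, 0.0577 and 0.000845) and none was called. All 3 probes were well above background on all 16 arrays and are annotated to the same transcript.

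Nanog, the homeodomain factor named for sustained self-renewal, was lowest in Flk1+ cells on these arrays. It was at 8.34 and 8.33 in Sp1+/+ and at 8.78 and 8.20 in Sp1-/- Flk1+ arrays, and at 9.39 and 9.08 in Sp1+/+ and 9.51 and 10.51 in Sp1-/- HE1 arrays. The rise was 1.87-fold in Sp1+/+ cells (log2 0.90, SE 0.28, adjusted p 0.035, not called) and 2.87-fold in Sp1-/- cells (log2 1.52, SE 0.28, adjusted p 0.00159). A direct test of the difference between these rises did not call it (log2 0.62, SE 0.39, adjusted p 0.559 in limma). The second Sp1-/- HE1 array was the highest of the 16, and without the first one the Sp1-/- minus Sp1+/+ difference in HE1 went from 0.77 (unadjusted p 0.0178) to 1.27 (unadjusted p 0.00021). When the fit used the arrays of the comparison alone, the rise in Sp1-/- cells was no longer called (unadjusted p 0.0163). From HE2 on Nanog lay between 8.92 and 9.45. It has 1 probe here, and the RefSeq table lists the pseudogenes Nanog-ps1 and Nanog-ps2, whose part in the signal was not tested.

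Lin28a was well above background in all populations and declined in steps. Its Flk1+ values were 14.29 and 14.15 in Sp1+/+ and 14.77 and 14.46 in Sp1-/- arrays, and its HE2 values were 13.26 and 13.35 against 13.62 and 13.52. In the progenitors it was at 12.83 and 12.63 in Sp1+/+ and at 11.63 and 11.84 in Sp1-/- arrays. The Sp1-/- arrays were therefore above the Sp1+/+ arrays up to HE2 and below them in the progenitors. The fall from HE2 to progenitors was 3.57-fold in Sp1-/- cells (log2 -1.83, SE 0.13, adjusted p 1.9e-05) and 1.49-fold in Sp1+/+ cells (log2 -0.57, SE 0.13, adjusted p 0.0362, not called). The genotype difference in the progenitors, 1.99-fold (adjusted p 0.000442), was just short of the 2-fold limit, and it passed that limit without either second progenitor array. The Sp1-/- effect in the progenitors minus that in Flk1+ cells was -1.39 on the log2 scale (SE 0.18, adjusted p 0.0018).

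Utf1, a chromatin-associated protein gene, passed the call in no comparison. Its Flk1+ values were 9.59 and 9.41 in Sp1+/+ and 10.29 and 9.70 in Sp1-/- arrays, and its progenitor values were 8.87 and 8.93 against 8.87 and 8.85. Its genotype differences ran from -0.04 to 0.49 on the log2 scale (SE 0.19 each).

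The comparison of genotypes over the 10 genes gave few calls. In Flk1+ cells 1 was higher (Esrrb, where 0.778% of all genes were higher) and 1 lower (Dppa5a, where 0.867% were lower). In HE1, HE2 and the progenitors the same 2 genes, Dppa5a and Dppa4, were lower, where 1.13%, 1.18% and 2.61% of all genes were lower. No member was called higher after Flk1+ cells, where limma called 0.972% of all genes higher in HE1, 0.772% in HE2 and 1.5% in the progenitors. An unadjusted p under 0.05, in either direction and at any size, was found for 7, 4, 2 and 4 of the 10 genes in the 4 populations in that order, and for 20.1%, 24.3%, 17.8% and 25.5% of all genes. The 10 genes had a median log2 difference of 0.34 (Flk1+ cells), 0.19 (HE1), 0.13 (HE2) and -0.13 (progenitors), against 0.01 to 0.02 over all genes. The tests of the difference between populations called 2 members in HE1, 2 in HE2 and 3 in the progenitors, all with a lower Sp1-/- effect than in Flk1+ cells, where 0.891%, 0.988% and 2.38% of all genes were called in that direction. These tests share the Flk1+ arrays.

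**Figure D3:**
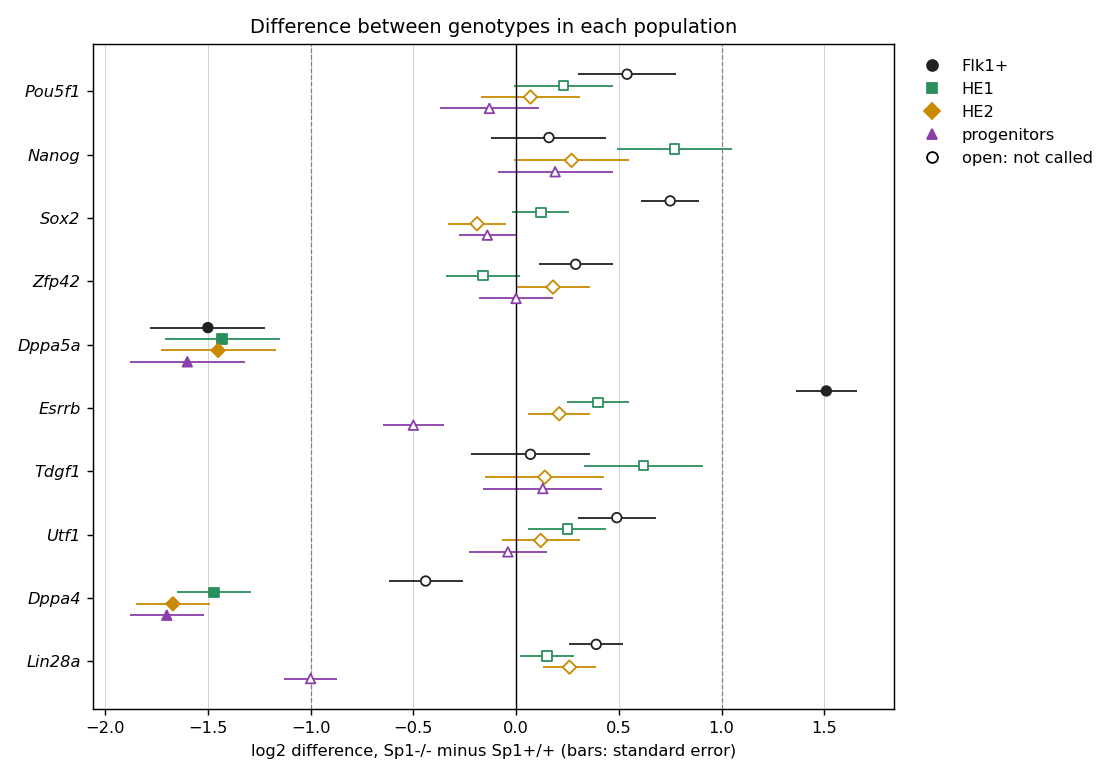
Log2 difference between genotypes, Sp1-/- minus Sp1+/+ (x axis), for each of the 10 genes (y axis) in Flk1+ cells, HE1, HE2 and progenitors, with standard errors as bars, filled symbols for called differences and dashed lines at 2-fold. Dppa5a lies between -1.43 and -1.60 in these deposited values (lower after Flk1+ cells with an offset of 16 or the processed signal), Dppa4 moves from -0.44 to -1.70, and Esrrb moves from 1.51 to -0.50.

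**Figure D4:**
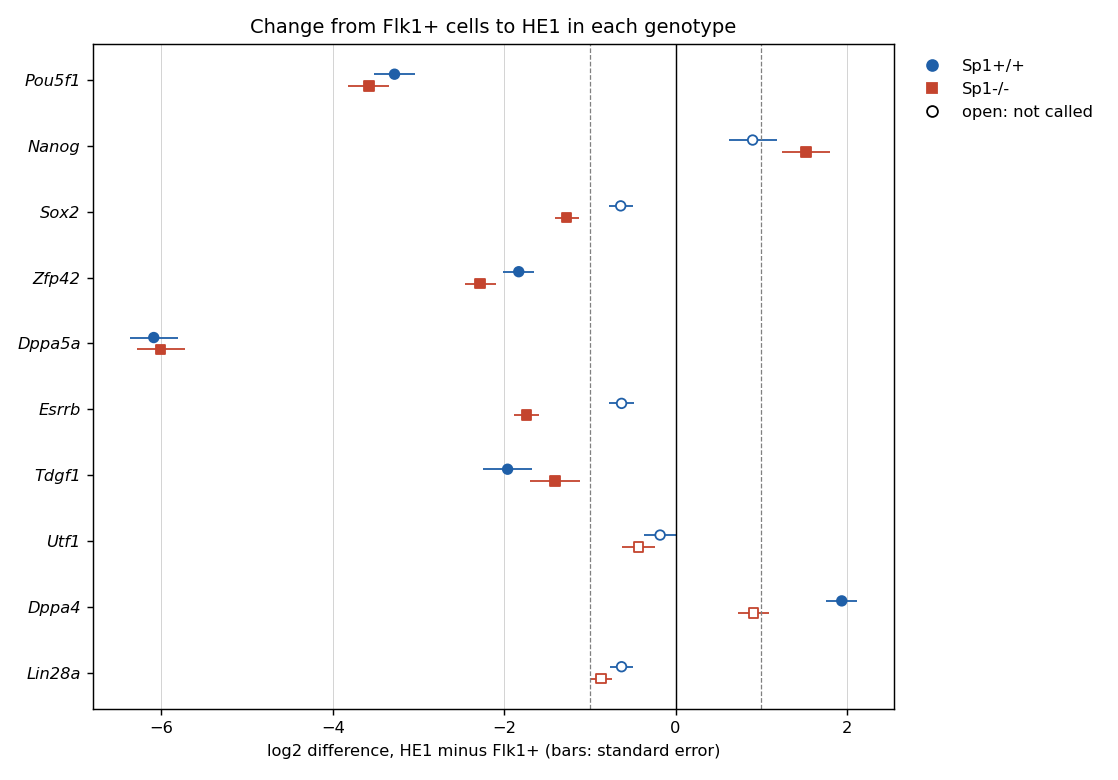
Log2 difference between HE1 and Flk1+ cells (x axis) for each of the 10 genes (y axis) in Sp1+/+ (circles) and Sp1-/- (squares) cells, with standard errors as bars, filled symbols for called differences and dashed lines at 2-fold. Dppa5a falls by 6.09 and 6.01 on the log2 scale in Sp1+/+ and Sp1-/- cells, while Dppa4 and Nanog lie to the right of 0.

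Wider lists of the same biology were counted beside the 10 genes. Mycn and Trim71 are on both the naive and the Lin28 lists, and Gdf3 on both the naive and the Nodal lists. Of all genes, 3.89% fell and 4.66% rose from Flk1+ cells to HE1 in Sp1+/+ cells, and 4.87% fell and 4.62% rose in Sp1-/- cells. Between genotypes 0.778% of all genes were higher and 0.867% lower in Flk1+ cells, and 1.5% and 2.61% in the progenitors. Of 29 further naive pluripotency genes with a probe, 10 fell and 4 rose from Flk1+ cells to HE1 in Sp1+/+ cells, and 14 fell and 3 rose in Sp1-/- cells (median log2 difference -0.67 and -0.81, against -0.01 over all genes). Between genotypes 3 were higher and 1 lower in Flk1+ cells, where Tdh, the threonine dehydrogenase of ES cells, was 3.36-fold higher and Dppa2, named after its values were seen because its protein partners Dppa4, 2.29-fold lower. In the progenitors 3 were lower, among them Tbx3, a T-box factor (5.17-fold), and Mycn (2.89-fold). Of 15 genes of the Nodal and Cripto pathway, with which Tdgf1 works, 4 were higher and 2 lower in Sp1-/- Flk1+ cells. Nodal itself, also named after its values were seen, was 2.2-fold higher there, and its inhibitors Lefty1 and Lefty2 2.61-fold and 3.67-fold higher. Cfc1, the other co-receptor of the Cripto family, was 2.08-fold higher there (adjusted p 0.0876 in limma). In HE1 Cfc1 was 2.77-fold higher in Sp1-/- cells (adjusted p 0.0197 in limma). Foxh1, the DNA-binding partner of the Smad proteins, was 2.39-fold higher in Sp1-/- progenitors. Of 12 genes of the Lin28 and let-7 axis, 3 were lower in Sp1-/- progenitors, where Lin28a was also low. These were Hmga2, a chromatin protein (6.04-fold), Igf2bp2, an RNA-binding protein (2.53-fold), and Mycn. Lin28b, the paralog of Lin28a, lay between 13.42 and 13.59 on all 4 progenitor arrays.

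Markers of other cells also differed in the progenitors, where the Lin28a, Dppa4 and Dppa5a differences were measured. Over all genes, 1.5% were called higher and 2.61% lower in Sp1-/- progenitors. Of 6 fibroblast genes 3 were lower in the Sp1-/- progenitors (Col1a1 by 26-fold), and the mean over the 6 was 8.84 to 9.21 on the Sp1+/+ and 7.19 to 7.26 on the Sp1-/- arrays, with 1 of the 6 not well above background on either Sp1-/- array. Of 6 hemogenic endothelium genes 3 were lower, with means of 9.81 to 10.86 and 8.71 to 9.02. Of 7 endoderm genes 1 was lower, with means of 7.11 to 7.76 and 6.72 to 6.74, and Sox17 is on both of these lists. Of 7 hematopoietic genes 1 was higher (Ptprc, 2.43-fold), with means of 11.89 to 12.09 and 12.32 to 12.49. Of the 8 primed epiblast genes, of which 2 were higher in Sp1-/- Flk1+ cells, 3 were lower and 0 higher in Sp1-/- progenitors. The means over the 8 were 8.45 to 8.52 on the Sp1+/+ and 7.83 to 7.91 on the Sp1-/- progenitor arrays. The part of all these markers in the Lin28a, Dppa4 and Dppa5a differences was not tested. In HE1, 2 of the 6 fibroblast genes were higher in Sp1-/- cells, as were 0.972% of all genes. The means over the 6 were 8.53 to 9.36 in Sp1+/+ and 9.37 to 10.12 in Sp1-/- arrays.

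Across the 16 arrays, the genes followed Pou5f1 to different degrees. The Pearson r with Pou5f1 was 0.98 for Zfp42, 0.96 for Tdgf1, and 0.93 for both Sox2 and Dppa5a. It was 0.85 for Esrrb, 0.72 for Lin28a and 0.67 for Utf1, and it was -0.69 for Nanog and -0.45 for Dppa4. These values describe 16 arrays that share 8 groups and are dominated by the step from Flk1+ cells to HE1. Among all genes with a symbol, the pattern most like that of Pou5f1 was that of Mesp1, a mesoderm factor (r 0.997). For Zfp42 it was Kif5a (r 0.988), with Fgf4, a growth factor of the inner cell mass, and Gna14 next (r 0.985 each). For Dppa4 it was Gimap9 (r 0.965) and Hoxd8 (r 0.963), for Lin28a Fzd1, a Wnt receptor (r 0.979), for Esrrb Map3k4, a kinase (r 0.965), and for Nanog Foxn3, a forkhead factor (r 0.938).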

How the data were processed

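RNA of 16 sorted samples (2 genotypes, 4 populations, 2 arrays each) had been labelled with Cy3 and hybridised to Agilent 8x60K mouse arrays. The authors deposited the scanner's spot intensity tables (Feature Extraction, version 10.7.3.1 per the file headers and 10.7.1.1 per the submitters' processing notes) and a table of normalized log2 values. The methods give normexp background correction in limma with an offset of 16 and quantile normalization. The deposited log2 values equal that procedure with an offset of 50 to within 0.005, and differ by up to 1.63 with 16. The larger offset shrinks fold changes of dim genes. Background flags came from the deposited intensity files.

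Each array has 62976 spots, 59305 not controls. Target names were matched to RefSeq symbols (GRCm38.p6), 20869 of 37932, with 1363 of 22232 RefSeq names unmatched. Of 55681 probes, 55595 reached log2 6 on an array, and the brightest stood for its gene. One limma model (R 4.3.3, limma 3.58.1) with 8 group coefficients and 8 residual degrees of freedom gave all contrasts, with Benjamini-Hochberg values over 37154 genes. Where a group had no array well above background, a fold is a bound. On data simulated for the genotype comparisons (37116 genes, 200 changed), 97 to 99 percent of changes of 1.5 on the log2 scale and 100 percent of changes of 2.5 were recovered, with 19 to 25 false calls. The noise was drawn from the spread fitted by the same model. Changes near the 2-fold limit were not simulated, so their recovery is not known. The number of arrays limits the precision. The 10 genes, the wider lists and the tests were chosen with earlier results of these data known, and from each list up to 4 genes called between genotypes were named by size, beside genes said to be named later, and a gene that this rule names is not reported here. Alternatives were the offset of 16, no background correction, the scanner's processed signal, other filters, the mean over probes, other probes of Tdgf1 and Dppa4, a replicate block, an adjusted p, only the arrays of a comparison, and each array left out.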

Additional observations from a re-analysis of the deposited data

Results flagged for a closer look

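For 3 of the 10 genes a direct test called a difference of the Sp1-/- effect between populations. For Esrrb, the effect minus that in Flk1+ cells was -1.12, -1.31 and -2.01 on the log2 scale for HE1, HE2 and progenitors (SE 0.21 each, adjusted p 0.0388, 0.0176 and 0.000887 in limma), and the value for HE1 was -0.70 (unadjusted p 0.0447, not called) with the scanner's processed signal. For Dppa4 it was -1.03, -1.23 and -1.25 (SE 0.26 each, adjusted p 0.101, 0.0535 and 0.019), so that the values in HE1 and HE2 pass the unadjusted p of 0.01 but not an adjusted p of 0.05. For Lin28a it was -1.39 for the progenitors (SE 0.18, adjusted p 0.0018). For Sox2 it was -0.94 for HE2 and -0.89 for the progenitors (SE 0.20 each, adjusted p 0.057 and 0.0278), short of the 2-fold limit. With an offset of 16 these were -1.38 and -1.29, and with no background correction -1.19 and -1.14, all called. With the processed signal the value for the progenitors was -2.93 and called. No HE2 or progenitor array was well above background for Sox2.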

How the results depend on the processing

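Across the comparisons of single genes, 28 were called. Under 438 alternatives, 420 of these values stayed called in the same direction, 18 were no longer called and 0 reversed. Of 102 results not called, 27 of 1554 alternatives passed the threshold, and 0 passed it in the opposite direction. The sign of some uncalled differences did change. Between genotypes in HE1, Zfp42 was at -0.16 on the log2 scale and at 0.09 with the processed signal. In Flk1+ cells Dppa4 was at -0.44 on its brightest probe and at 0.19 on A_55_P2158607. In HE1 the count of members called between genotypes was 1 in place of 2 with the mean over all probes, as Dppa4 reached -0.97. With the scanner's processed signal the count fallen from HE1 to HE2 in Sp1-/- cells was 1 (Sox2) in place of 0. The count fallen from HE2 to progenitors in Sp1-/- cells was 2 in place of 1 with an offset of 16 and with no background correction (Esrrb added), and 3 with the processed signal (Esrrb and Dppa4 added). For the difference of the Sp1-/- effect from Flk1+ cells, HE1 had 1 member in place of 2 with the processed signal, the mean over probes or an adjusted p of 0.05, and HE2 had 1 in place of 2 with an adjusted p of 0.05. These alternatives for the differences of effect, and the other probes of Tdgf1 and Dppa4, were chosen after seeing the data. The cause of these changes was not tested.

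With each array left out in turn, the members called between genotypes ranged from 2 to 3 in Flk1+ cells, HE1 and progenitors and were 2 in HE2. Those fallen to HE1 were 4 in Sp1+/+ and ranged from 6 to 7 in Sp1-/- cells, and those fallen from HE1 to HE2 in Sp1-/- cells ranged from 0 to 1, the 1 being Nanog without the first HE1 array. For the differences of effect, HE1 ranged from 1 to 3 members, HE2 from 2 to 3 and the progenitors from 3 to 5, where the 5 came without the first Sp1+/+ Flk1+ array (Pou5f1 and Sox2 added). In HE1, Esrrb or Dppa4 was lost, leaving 1 member, without 1 of 5 arrays, both Flk1+ and both HE1 arrays of Sp1+/+ and the first Sp1-/- Flk1+ array. A group left with 1 array was assumed to vary like the others. Samples with the same replicate number did not deviate together in every pair of groups (r of -0.174 to 0.503 over 28 pairs, 11 over 0.1, the highest for Sp1+/+ HE1 with HE2), so the numbers were not used as a pairing. With the replicate number as a block, the counts were as before, 4 and 6 fallen to HE1 and 2 called between genotypes in each population. The scanner's processed signal moved the median of all genes by 0.188 between genotypes in HE1. After Flk1+ cells, groups with no array well above background (Sox2, and the dimmer probes of Tdgf1) have only bounds.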
